A study of Caenorhabditis elegans with 2 samples.

Results

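Nuclear hormone receptors are transcription factors with a zinc finger DNA-binding domain and a ligand-binding domain, and many of them change their activity when a small lipophilic molecule binds. The nematode Caenorhabditis elegans carries an unusually large family of their genes. A few have counterparts in insects and vertebrates and act in moulting, developmental timing and the choice of cell fates. Most of the others arose by expansion within nematodes from a gene related to the liver receptor HNF4, and the best studied of these act in metabolism. The genes described here were chosen by name from the Ensembl annotation of the WBcel235 assembly, which is the ce11 build. They are the 269 protein-coding genes with a symbol of nhr- and a number, together with daf-12, fax-1, odr-7, sex-1 and unc-55, which makes 274 of 19973 protein-coding genes on the nuclear chromosomes.

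The regions came from chromatin immunoprecipitation with sequencing of eGFP-tagged SPTF-1, a transcription factor related to Sp1, in whole L1 larvae, the first larval stage. The worms were a mixed-sex population of strain OP196, genotype unc-119(ed3) III; wgIs196, where wgIs196 is the transgene insertion, and all worms of both samples carried it. The promoter and copy number of the transgene are not given in the sources used here, and whole larvae mix all tissues. The 2 samples were biological replicates of this single group, so conditions were not compared, and no control library was analysed here. Each replicate had a list of 30000 regions on ce11 that included background by its own description, the pooled list held 193 regions, and the optimal IDR list, made from regions ranked reproducibly, held 18 peaks. The number of sequenced reads was unknown.

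The gene window was the gene body plus 2 kb upstream of the gene start, and a region counted when it shared at least 1 bp with it. Regions were ranked by the deposited signal value, with rank 1 for the highest in its list. The signal scale was not stated and differed between the lists, with medians of 9.78 in replicate 1 and 8.13 in replicate 2, so that ranks rather than signals are set side by side.

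The windows of 3 receptor genes held a region of the pooled list. They are nhr-107 and nhr-178, for which no role is given here, and nhr-49, a regulator of fatty acid oxidation and desaturation and of the response to fasting. Sequences of the pooled summit with 50 bases on each side are shown for nhr-107 and nhr-178, followed by those around the replicate 1 summit at the next 5 places by mean rank where regions of both replicates overlapped. Bases at nhr-49, whose pair had the best mean rank, are not shown here. All are on the plus strand of ce11, read from the RefSeq copy of the same assembly, and capitals mark the 11 bases around the summit of each replicate where it falls inside the stretch. The order is nhr-107 (chrV:6995417-6995517), nhr-178 (chrV:1607928-1608028), nhr-12 (chrV:10084938-10085038), nhr-209 (chrV:12098236-12098336), the stretch shared by the windows of nhr-103 and nhr-128 (chrV:2223987-2224087), nhr-27 (chrX:12787913-12788013) and nhr-223 (chrV:15795709-15795809). The replicate 1 summit at nhr-27 lay in an intron of that gene and also inside the protein-coding gene str-124.
nhr-107: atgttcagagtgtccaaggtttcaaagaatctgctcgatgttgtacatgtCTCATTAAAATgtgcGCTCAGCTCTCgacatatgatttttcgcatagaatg
nhr-178: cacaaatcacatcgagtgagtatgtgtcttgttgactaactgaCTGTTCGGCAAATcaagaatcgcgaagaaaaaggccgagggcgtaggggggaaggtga
nhr-12: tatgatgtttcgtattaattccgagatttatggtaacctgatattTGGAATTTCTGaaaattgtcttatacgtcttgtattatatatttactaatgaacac
nhr-209: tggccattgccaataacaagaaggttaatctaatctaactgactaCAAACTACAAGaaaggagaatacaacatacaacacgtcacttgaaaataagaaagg
nhr-103 and nhr-128: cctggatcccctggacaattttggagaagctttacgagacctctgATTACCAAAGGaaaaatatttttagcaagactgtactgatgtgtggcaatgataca
nhr-27: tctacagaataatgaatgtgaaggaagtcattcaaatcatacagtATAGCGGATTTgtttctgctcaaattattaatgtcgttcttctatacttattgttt
nhr-223: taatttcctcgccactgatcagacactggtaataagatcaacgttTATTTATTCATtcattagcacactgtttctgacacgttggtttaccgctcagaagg

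In these windows the G+C content ran from 26.7% at nhr-12 to 48.5% at nhr-178, where the medians over all regions were 35.6% in replicate 1 and 36.6% in replicate 2. Sp proteins are known to bind GC boxes and related GT boxes. The GC box core GGGCGG was searched on both strands, as were the GT box letters CACCC. A longer form, GGGTGTG, was searched too, and it contains the reverse complement of CACCC, so that every match of it is also one of CACCC. The 7 stretches held none of the 3. Over the 481 distinct member regions of replicate 1, 4 windows of this length held GGGCGG, which is 0.832%, against 1.48% of all 30000 regions. In replicate 2 it was 6 of 468 windows, 1.28%, against 1.68% of all regions. CACCC was in 5.2% of member windows against 6.38% of all in replicate 1, and in 4.49% against 6.91% in replicate 2. GGGTGTG was in 0.208% of member windows against 0.46% of all in replicate 1, and in 0.641% against 0.437% in replicate 2.

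The region at nhr-107 lay in coding sequence near the 3′ end of the gene. The gene (WBGene00003697) is on the minus strand of chromosome V at 6995214 to 6997091, and the pooled region spanned 6995295 to 6995638. Its signal was 32.6 in the pooled list, at rank 48 of 193. In replicate 2 the overlapping region had a signal of 18.3 at rank 72, which was the best rank of any member region in that list, and in replicate 1 it had a signal of 14.4 at rank 2593. The replicate summits were 15 bp apart, 1604 and 1619 bp downstream of the gene start. The deposited q value, the caller's estimate of the false discovery rate, was 0.0769 in replicate 2, 0.619 in replicate 1 and 0.979 in the pooled list. The replicates thus placed the summit at nearly the same base and ranked it very differently.

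The region at nhr-178 (WBGene00017510, minus strand, 1603906 to 1607953) straddled the gene start. The pooled region at 1607806 to 1608149 had its summit 25 bp upstream of the start, and the replicate summits lay 2 bp apart. The signal was 14.6 at rank 2357 in replicate 1 and 10.9 at rank 4756 in replicate 2, with 29.7 at rank 147 in the pooled list. It was the only region listed in that window in each replicate. The q values were 0.605, 0.556 and 0.986 in replicate 1, replicate 2 and the pooled list, so the place was alike in both replicates while no list gave it a low q.

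At nhr-49 (WBGene00003639, plus strand of chromosome I, 9869651 to 9874680) the regions lay in an intron about 1 kb into the gene. The signal was 16.1 at rank 1248 in replicate 1 and 16.3 at rank 264 in replicate 2, and their mean rank of 756 was the best of any overlapping pair at a member. The summits were 124 bp apart. The pooled region at 9870552 to 9870895 had a signal of 29.3 at rank 168 and a q of 0.946. The window also held 1 further region in replicate 1, upstream and inside the neighbouring gene K10C3.5, and 3 further regions in replicate 2 at ranks 15633 to 21532.

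**Figure D1:**
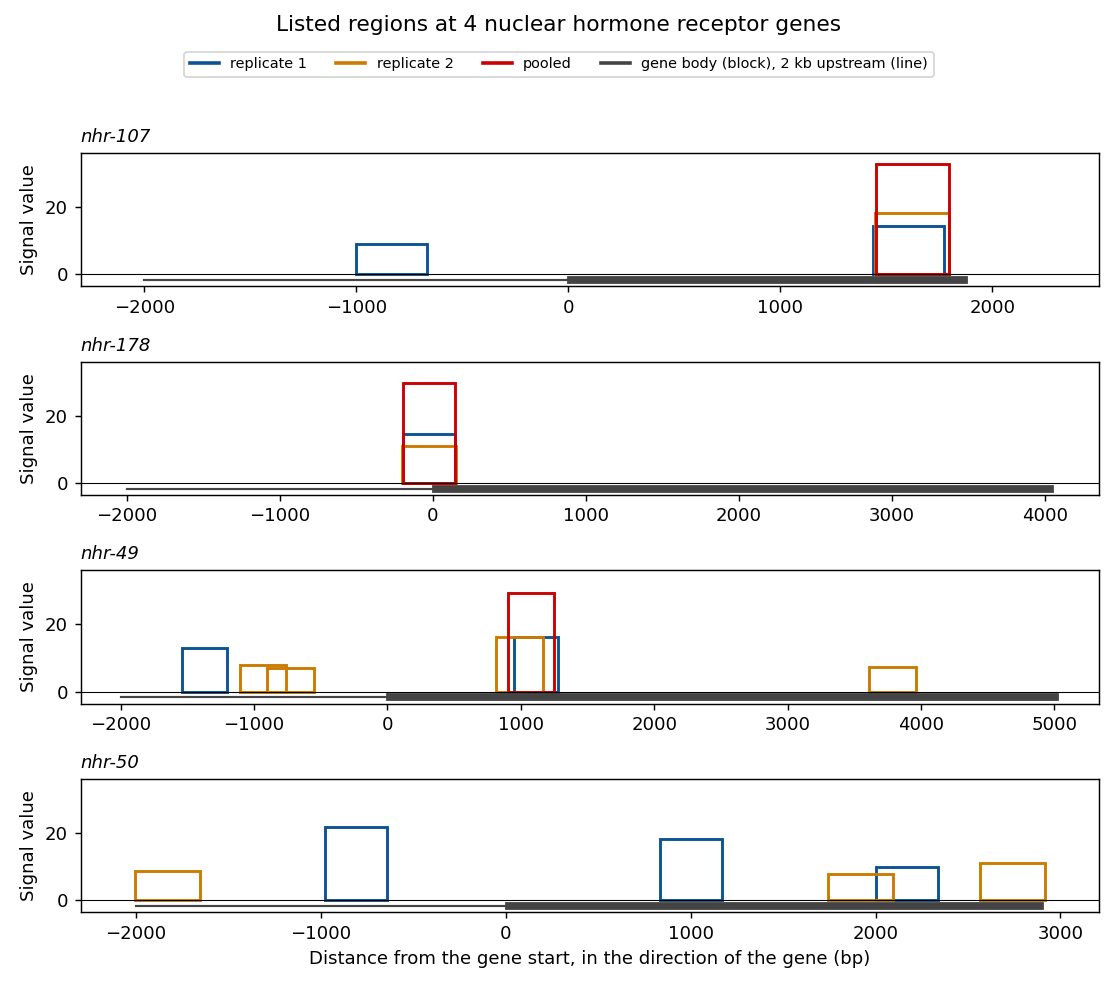
Listed regions at nhr-107, nhr-178, nhr-49 and nhr-50, plotted by distance from the gene start in bp (x axis) and deposited signal value (y axis). The lists share the y axis although their signal scales differ, so box heights are not comparable between lists. Boxes are regions at their width, the dark block is the gene body and the line the 2 kb upstream. At nhr-107, nhr-178 and nhr-49 boxes of both replicates and the pooled list overlap, whereas at nhr-50 the region at rank 85 in replicate 1 has no box of replicate 2 over it.

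These 3 genes make 1.09% of the 274 members, with an exact Clopper-Pearson interval at 95% of 0.226 to 3.17%. Of all protein-coding genes, 0.971% had a pooled region in the window, so the members' share was near the background. The window of no member held an optimal IDR peak, against 0.0901% of all protein-coding genes. For 0 of 274 genes the exact interval reaches 1.34%, and 3 counts of the total allow a share of up to 1.09%. Intervals on shares cover counting error only, and 123 members had a window that overlapped that of another member, so the genes were not independent counts.

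Across the family, listed regions were common, as they were over all genes. A region lay in the window of 230 members in replicate 1, which is 83.9% (exact interval 79 to 88.1%), against 76% of all protein-coding genes. In replicate 2 it was 222 members, 81% (75.9 to 85.5%), against 76.7%. In at least 1 list it was 260 members, 94.9% (91.6 to 97.2%), against 91%. Regions of both lists, not necessarily overlapping, were in the windows of 192 members, 70.1% (64.3 to 75.4%), against 61.7%. A further 38 members had a region in replicate 1 alone and 30 in replicate 2 alone. Of all 19973 protein-coding genes, 15185 had a region in replicate 1, 15318 in replicate 2 and 12318 in both, so regions in 1 list alone were common there too.

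Longer windows have more room for regions, and members had a median length of 2320 bp and other protein-coding genes of 2020 bp. Each member was set beside the protein-coding genes of other families on its chromosome with a length within 20% of its own, a median of 754 genes. This could be done for 273 members, because nhr-27 had no gene of similar length. Among genes of similar length, 77.6% had a region in replicate 1, 6.28 percentage points below the members. In replicate 2 they reached 80%, only 0.925 points below the members. The gap to similar genes was therefore larger in replicate 1 than in replicate 2. The members' exact intervals in the lists, 79 to 88.1% and 75.9 to 85.5%, overlapped, so the replicates are not shown to differ in it. For regions in both lists the gap was 5.44 points, 70% of these members against 64.5% of similar genes.

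In counts of regions per gene the replicates were alike. Members held a mean of 1.82 regions in replicate 1 and 1.8 in replicate 2, where genes of similar length held 1.61 and 1.67. Each member's count was set against the mean count of its similar genes. The median over members of this difference was −0.12 regions in replicate 1 and −0.22 in replicate 2, while the mean difference was 0.22 and 0.13. The median and the mean thus had opposite signs, and in each replicate 122 members lay above that mean count and 151 below. Counts are whole numbers, however, so a member with 1 region can lie below the mean yet in the middle of its similar genes. In replicate 1, nhr-53 had 1 region against a mean of 1.14 and was at percentile 49. The negative median and the split therefore do not place members below similar genes. The median percentile of a member among its similar genes was 49.3 in replicate 1 and 45.8 in replicate 2. Per length of window, members held 3.48 regions per 10 kb in replicate 1 and 3.4 in replicate 2, and other protein-coding genes 3.22 and 3.27.

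**Figure D2:**
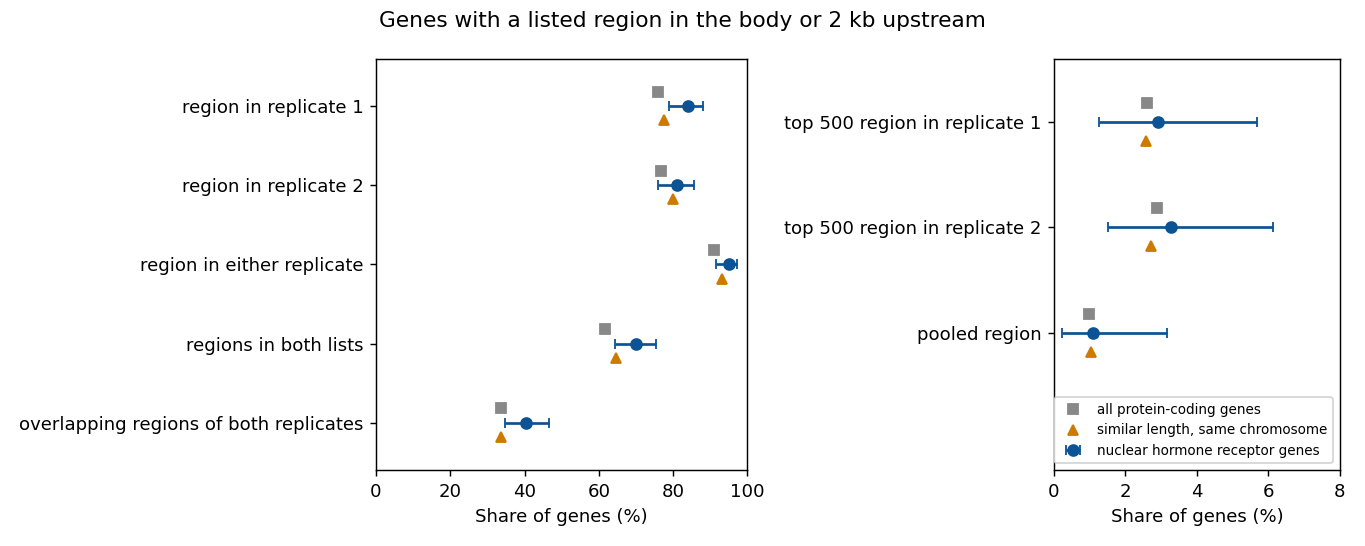
Share of genes in percent (x axis) with a listed region in the body or 2 kb upstream, for 8 definitions of a region (y axis), with the rarer 3 on a scale of their own at the right. Circles are the 274 nuclear hormone receptor genes with 95% exact intervals, squares all 19973 protein-coding genes and triangles genes of similar length on the same chromosome, averaged over 273 members. Members lie above both references for a region in replicate 1 (83.9% against 76% and 77.6%), and close to the similar genes in replicate 2 (81% against 80%) and for pooled regions (1.09% against 1.04%).

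**Figure D3:**
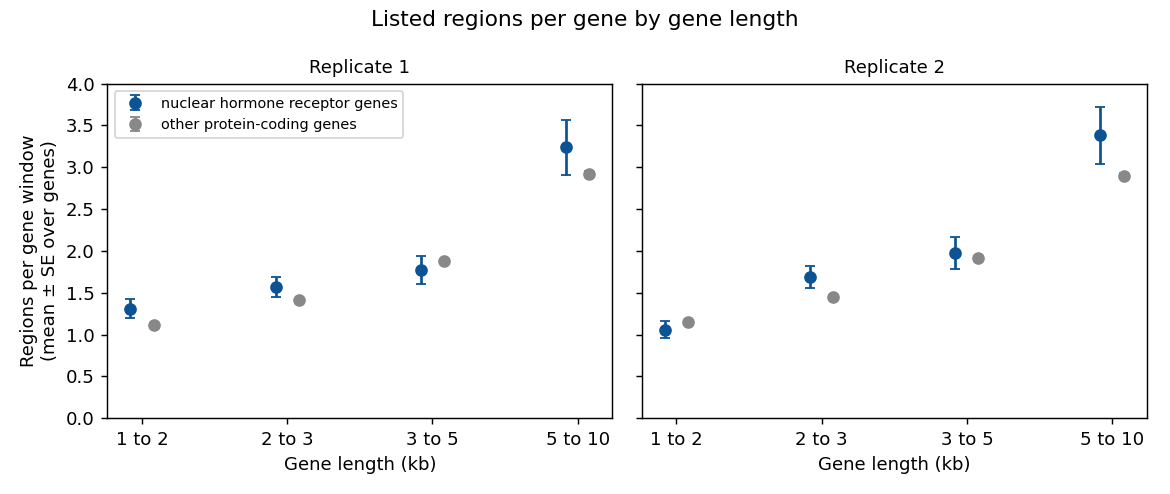
Mean number of listed regions per gene window (y axis) by gene length in kb (x axis), in replicate 1 (left) and replicate 2 (right). Bars are standard errors over genes, not replicate error, and classes with under 20 members are left out. In the class of 1 to 2 kb the 89 members average 1.31 regions in replicate 1, above the 1.12 of other genes, and 1.06 in replicate 2, below 1.15.

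The replicates shared places at members about as often as elsewhere. Of the 481 distinct regions of replicate 1 in member windows, 137 overlapped a region of replicate 2, which is 28.5% (24.5 to 32.7%), against 27.9% of its full list. Of the 468 of replicate 2, 141 overlapped one of replicate 1, 30.1% (26 to 34.5%), against 28.1%. By gene, 40.5% of members (34.6 to 46.6%) had overlapping regions of both replicates in the window, against 33.7% of all protein-coding genes and 33.7% of genes of similar length. The gap of 6.64 points by gene stood beside shares by region that were near those of the full lists.

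Where the replicates overlapped at members, the ranks in the 2 lists were not positively correlated. Over the 147 overlapping pairs at members Spearman's rho of the ranks was −0.138, given as a description, since the pairs come from the same 2 libraries and some share a gene. Over all 8801 pairs it was 0.021. The median gap between the summits of a pair was 141 bp at members and 124 bp over all pairs. Both regions were in the top 500 for 0 of the 147 pairs and for 8 of all 8801. They were both in the top 5000 for 4 of the 147 pairs, 2.72%, against 3.74% of all pairs. These 4 were the pairs at nhr-49, nhr-107, nhr-178 and nhr-12. The last, a region 939 bp upstream of the start in replicate 1 and 644 bp in replicate 2, ranked 3241 and 2099 with an overlap of 48 bp.

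Further down the list, the pair at nhr-209 lay across the gene start, at rank 6665 in replicate 1 with its summit in the 5′ UTR and at rank 207 in replicate 2 with its summit 165 bp upstream. The pair shared by nhr-103 and nhr-128 ranked 5712 and 4267 and lay in coding sequence of nhr-128, upstream of nhr-103. At nhr-223 the pair lay upstream at ranks 7880 and 3022. The pair at nhr-85 lay in the 3′ UTR at 4733 and 6216, and its replicate 1 summit also lay inside the gene npr-14. These pairs share a place but not a rank near the head of both lists.

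**Figure D4:**
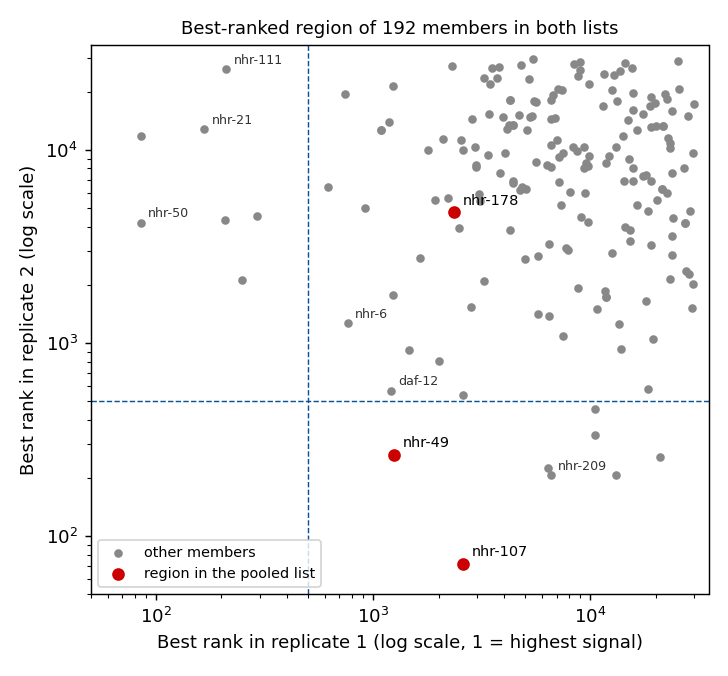
Best rank in replicate 1 (x axis) against best rank in replicate 2 (y axis), both on a log scale with 1 the highest signal, for the 192 members with a region in both lists. Dashed lines mark rank 500, and red points are the 3 members with a pooled region. No member lies below rank 500 on both axes, which was rare over all protein-coding genes too (36 of 19973). The gene nhr-111, at rank 211 in replicate 1, is at rank 26170 in replicate 2.

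A high rank in one replicate was as frequent at members as in the lists at large. The windows of 8 members, 2.92% (1.27 to 5.67%), held a top 500 region of replicate 1, against 2.6% of all protein-coding genes. For replicate 2 it was 9 members, 3.28% (1.51 to 6.14%), against 2.88%. By region, 8 of 481 in replicate 1, 1.66%, and 8 of 468 in replicate 2, 1.71%, were in the top 500, where the top 500 are 1.67% of a list. Of the 17 members concerned, 0 had a top 500 region in both replicates. Over all protein-coding genes it was 36 of 19973, a share so small that 0 of 274 members does not set the family apart.

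The highest member region of replicate 1 lay between the divergent genes nhr-50 and nhr-63 on chromosome V at 16001272 to 16001607, with a signal of 21.7 at rank 85 and a q of 0.101. It was 809 bp upstream of nhr-50 and 1148 bp upstream of nhr-63, and no region of replicate 2 overlapped it. The window of nhr-50 also held a region at rank 493 in replicate 1. The best rank in replicate 2 was 4201 at nhr-50 and 11724 at nhr-63.

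The other top 500 regions of replicate 1 lay in introns of nhr-21 (rank 167), nhr-111 (211), nhr-65 (248) and nhr-124 (291), and upstream of nhr-105 (207) and nhr-90 (390). Of the 8 distinct regions, 1 overlapped a region of replicate 2, that at nhr-21, which ranked 18863 there. The share of 12.5% stands beside 37.2% of all top 500 regions of replicate 1, but with 8 regions it is too coarse to set members apart.

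In replicate 2 the top 500 regions after nhr-107 lay in an intron of nhr-173 (rank 100), between nhr-207 and nhr-209 (207), in an intron of nhr-271 (226), in coding sequence of nhr-130 (257), at nhr-49 (264), in the first coding stretch of nhr-14 (335) and upstream of nhr-97 (457). nhr-14 is known for its part in iron uptake. Of the 8, 4 overlapped a region of replicate 1, 50% against 34% of all top 500 regions, and the ranks there were 1248 at nhr-49, 2593 at nhr-107, 6665 at nhr-209 and 29505 at nhr-14. This share too comes from 8 regions, and it lay above the background where that of replicate 1 lay below. The window of nhr-173 held no region of replicate 1 at all. The lowest q of any member region was 0.101 in replicate 1 and 0.0769 in replicate 2, so 0 member regions had a q under 0.05. The full lists held 40 and 29 such regions of 30000 each. These are so few that 0 of 481 and 0 of 468 member regions does not set the family apart.

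Signals at members were those of the lists as a whole. In replicate 1 member regions ran from 7.52 to 21.7 with a median of 9.77, and the other regions had a median of 9.78. In replicate 2 they ran from 6.1 to 18.3 with a median of 8.21, against 8.13. The median rank was 15050 in replicate 1 and 14540 in replicate 2, close to the middle of lists of 30000.

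The 15 members conserved beyond nematodes all had regions in both lists, and they are long, with a median of 5191 bp. Regions in both lists were found at 61.7% of all protein-coding genes. Overlapping regions of both replicates were in 10 of the 15 windows, against 33.7% of all protein-coding genes, and genes outside the family had a median length of 2020 bp. The density of the 15 members, 3.58 regions per 10 kb in each replicate, was near the 3.47 and 3.39 of the other 259 members. None had a pooled region, and nhr-111 alone had a top 500 region.

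Among the receptors of developmental timing, daf-12, the receptor for the dafachronic acids that decide between dauer arrest and reproductive growth, is 30968 bp long and held 12 regions in each replicate, where the 12 genes of similar length on chromosome X averaged 8.67 and 9.67. Its best ranks were 1206 in replicate 1, in an intron 7767 bp from the start, and 566 in replicate 2, in an intron 12682 bp from the start, and these did not overlap. Regions overlapped at 3 pairs in the gene, the nearest with summits 6 bp apart at ranks 11364 and 1731. The moulting receptor nhr-23 held 3 regions in each replicate with best ranks of 5370 and 14904. nhr-25, which acts in moulting and epidermal development, held 1 region in replicate 1 at rank 19346 and 5 in replicate 2, the best at rank 1053 in the 3′ UTR. At nhr-85, a timing receptor related to Rev-erb, it was 6 and 4 regions with best ranks of 4733 and 6216. Of these 4 genes daf-12 had the best rank in each list, at different places of a long gene.

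The receptors of neuronal identity held from 1 to 3 regions in a list. unc-55, which sets motor neuron identity, had its best region in coding sequence at rank 741 in replicate 1 and a single region upstream at rank 19539 in replicate 2. fax-1, needed for axon pathfinding and interneuron identity, had 1 region in each list at ranks 28429 and 2263. odr-7, which specifies the AWA olfactory neurons, had 1 in each at ranks 15086 and 9000, and none of these 3 genes had an overlapping pair. For the sex determination receptor sex-1, a signal element on chromosome X, the counts were 2 and 3 with best ranks of 23678 and 2843.

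Of the other conserved members, nhr-6, the NR4A receptor of spermatheca development, had best ranks of 764 in replicate 1, in an intron, and 1263 in replicate 2, 1878 bp upstream. These were different places, and the overlapping pair at its start ranked 2206 and 16918. nhr-48 had best ranks of 2834 and 1536, nhr-41 of 1934 and 5466, and nhr-8, a receptor of sterol balance and xenobiotic response, of 9048 and 4461. nhr-67, the TLX relative of the anchor cell and uterus, had 28855 and 4793, nhr-91 had 23649 and 15777, and nhr-239 had 7409 and 20299.

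The 14 members with known parts in metabolism held more regions in replicate 1 than in replicate 2. All 14 had a region in replicate 1 and 12 in replicate 2. Their densities were 5.08 and 3.46 regions per 10 kb, against 3.22 and 3.27 for protein-coding genes outside the family. Overlapping pairs were in 10 of the windows. Over all protein-coding genes the shares were 76%, 76.7% and 33.7%, and the 14 members are long, with a median of 4114 bp against 2020 bp for genes outside the family. nhr-49 had the pooled region, and nhr-49 and nhr-14 the top 500 regions. The imbalance was largest in count at nhr-62, a receptor of longevity under dietary restriction, with 6 and 1 regions, and at nhr-64, with 7 and 2. nhr-69 had 5 and 2. As nhr-62, nhr-64 and nhr-69 are all on chromosome I, they also enter the densities of that chromosome below. With 14 genes the densities rest on few regions, and their counting error was not measured. Replicate 2 had more regions at nhr-10, nhr-14, nhr-49 and nhr-80. Over the whole family 96 members had more regions in replicate 1 and 92 in replicate 2. nhr-66, a partner of nhr-49 in lipid metabolism, had 7 and 5 with best ranks of 2587 and 535. nhr-114, which acts in the response to low vitamin B12, and nhr-13 had 1 region each in replicate 1 and none in replicate 2. nhr-10 and nhr-68, which control the propionate shunt, had 1 and 2 regions and 1 and 1 regions, with no rank better than 14452. nhr-45 had best ranks of 4050 and 9617, nhr-76 of 8821 and 1928, and nhr-86 of 9455 and 5974. At nhr-80, a regulator of fatty acid desaturases, it was 2 and 3 regions at best ranks of 22645 and 18302.

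Genes that make or modify the sterol ligands, and coregulators of the receptors, gave a similar range. Of 7 genes, 5 had a region in replicate 1 and 6 in replicate 2, which is 71.4% and 85.7% beside 76% and 76.7% of all protein-coding genes. With 7 genes these shares are near the background. strm-1, a sterol methyltransferase, had the best rank of the 7. A region 1026 bp upstream of its start, on chromosome III at 2400869 to 2401218, ranked 45 in replicate 2 with a signal of 19.3 and a q of 0.0787, and an overlapping region ranked 10192 in replicate 1 with a signal of 10.9. The pooled list held it at rank 100. daf-9, the cytochrome P450 that completes dafachronic acid synthesis, had 1 region in each replicate at ranks 21496 and 19705, at different places. daf-36, the oxygenase of the first step, had 1 region in replicate 2 at rank 15450, and dhs-16 had none. The corepressor gene din-1 had best ranks of 2512 and 6008, the Mediator subunit gene mdt-15 of 6820 and 19371, and hsd-1 of 29110 and 5254.

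The most regions were at the longest member. nhr-27, whose annotated gene spans 102756 bp of chromosome X, held 31 regions in replicate 1 and 25 in replicate 2, with best ranks of 1460 and 914 and 4 overlapping pairs. daf-12 followed with 12 in each. Next by the sum over both lists were nhr-19, 7347 bp long, with 4 and 8, and nhr-66, 10272 bp long, with 7 and 5. At the other end, 14 of the 274 members had no region in either list. A region in at least 1 list was at 94.9% of members and 91% of all protein-coding genes. Of the 14, 8 were on chromosome V, which holds 167 of the 274 members. Among the 14, nhr-259 and nhr-244 are the shortest at 626 and 760 bp.

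By chromosome, 167 of the 274 members were on V, where 137 had a region in replicate 1, 82% against 71.6% of other protein-coding genes there, and 131 in replicate 2, 78.4% against 74.4%. Members on V had a median length of 2146 bp and the other genes 1718 bp. On chromosome I the replicates differed, with 4.44 regions per 10 kb over the 24 members in replicate 1 and 2.65 in replicate 2, where other genes had 3.22 and 3.25. Among these 24 are nhr-62, nhr-64 and nhr-69, named above for more regions in replicate 1, and nhr-49, which had more in replicate 2. On chromosome II it was the reverse, 2.87 and 3.79 over 15 members against 3.08 and 3.19. On III, IV and X the members' densities were from 3.19 to 3.75 in both replicates, against 3.18 to 3.49 for other genes.

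Within the gene, summits lay in coding sequence for 23.1% of the gene and region pairs in replicate 1 and 22.2% in replicate 2, against 22.5% and 24.8% for other protein-coding genes. Introns held 35.9% and 32.1%, against 31.9% and 29.7%, and the upstream part 31.9% and 35.2%, against 35.1% and 35%. In the 500 bp before the start, members had 34 summits in replicate 1, 2.48 per 10 kb, and 45 in replicate 2, 3.28 per 10 kb, against 2.98 and 3.01 for other genes. The members lay below the other genes in one replicate and above them in the other. In the first 500 bp after the start, members had 21.5 summits per 100 genes in replicate 1 and 15 in replicate 2, against 15.5 and 15.7. Of the distinct member regions, 25.4% in replicate 1 and 26.5% in replicate 2 also lay in the window of a gene of another family, so a region cannot be assigned to the receptor gene alone.

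**Figure D5:**
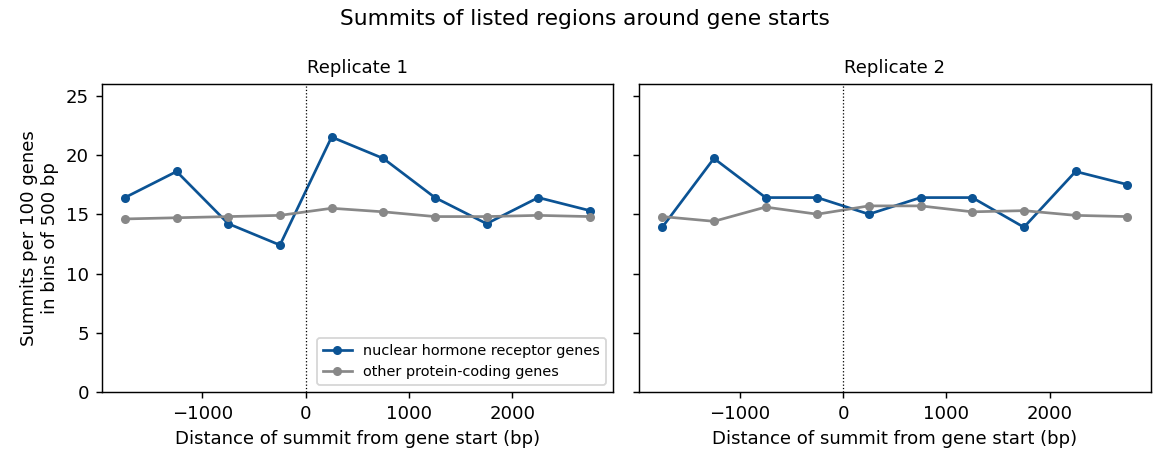
Summits of listed regions per 100 genes (y axis) in bins of 500 bp by distance from the gene start in bp (x axis, negative upstream), for the 274 members and the other 19699 protein-coding genes, in replicate 1 (left) and replicate 2 (right). Other genes stay between 14.4 and 15.7 throughout, and members range from 12.4 to 21.5 in replicate 1 and from 13.9 to 19.7 in replicate 2, with the highest bin at different distances in the replicates.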

How the data were processed

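The deposited region lists in narrowPeak format on ce11 were used, and those on ce10 were not. Per the deposited file records, each replicate list was derived from that replicate's alignment and 1 further file, which both replicates and the pooled list share and which is taken here to be the control. For the aligner, the peak caller and their settings, names and versions are not given in the sources used here. For each region, signal and score, the latter read as −log10 of q by the format's column order, are the authors' deposited values. Without read counts in the lists, sequencing depth was unknown.

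Genes came from Ensembl release 115. All 274 members were also in the RefSeq table of the same assembly at overlapping positions. Overlaps, ranks, exact Clopper-Pearson intervals and figures used scipy 1.17.1, pandas 2.3.3, matplotlib 3.10.9 and numpy 2.4.6 under Python 3.11.15, and overlap counting was tested on simulated data. No test was run across genes, which are not replicates. The members, lists and rules were chosen with earlier results of these data known. Named were members with a pooled region, a top 500 region or 1 of the 10 best overlapping pairs, conserved and metabolic members, odr-7, the 3 with the most regions, and 7 genes of sterol hormones and coregulators. Other genes named were chosen after their values were seen.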

Additional observations from a re-analysis of the deposited data

How the results depend on the processing

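Shares fell with a narrower window for members and all protein-coding genes alike. A region in replicate 1 was at 77.7% of members with 1 kb upstream (67.8% of all genes), 67.9% with the gene body only (55.9%) and 73.4% with the nearest gene start only (61.2%), the last chosen after seeing the data. In replicate 2 these were 73% (68.8%), 65% (57.4%) and 69.3% (61.8%). Overlapping regions of both replicates were at 32.8% (28.4%) with 1 kb, 28.5% (22.4%) with the body only, 29.6% (24.8%) with reciprocal overlap of 50% and 20.8% (18.2%) with summits within 100 bp. By construction, the top 100 gave 0.73% in each replicate (0.536% and 0.516%) and the top 5000 gave 25.9% in replicate 1 (23.3%) and 24.1% in replicate 2 (24.2%). A region in either list was at 81 to 83.9% with a replicate left out. The median difference from the mean of genes of similar length turned positive with the gene body only, at 0.24 in replicate 1 and 0.11 in replicate 2. Its sign thus depended on the window, and the cause was not tested. The count of members with a pooled region was 3 at each window tried, which is 1.09% of members. The share of all protein-coding genes fell from 0.971% to 0.806% with 1 kb upstream and 0.656% with the gene body only. It was 0.951% with the summit in the window and 0.661% with the nearest gene start only. No paired analysis was possible because both samples belong to 1 group.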
